A study of Mus musculus with 10 samples.

Results

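Enteroendocrine (EE) cells are the hormone-secreting cells of the gut lining, and their formation from crypt progenitors depends on a small group of transcription factors. The 9 genes described here, Neurog3, Neurod1, Pax4, Pax6, Isl1, Nkx2-2, Insm1, Rfx6 and Fev, were chosen by name, with no threshold on their measured values but with earlier results of these data known, out of 23810 genes in the single-cell count table. They were measured in mouse small intestinal organoids, and 664 of the 22139 organoid cells that the authors kept (2.999%) carried their annotation EE. Counts of unique molecular identifiers (UMIs, 1 per captured mRNA molecule) were summed per gene, cell class and library and are given as CPM, the count per 1000000 UMIs of that sum.

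The organoids were grown from crypts of the mouse proximal small intestine in 3 media. ENR-organoids (3 libraries, passages 2, 7 and 3) were fed with Noggin, EGF and R-Spondin 1. Hyper-organoids (3 libraries, passages 1, 6 and 3) were given the growth factors EGF and FGF2, R-Spondin 1 as conditioned medium, and the compounds EPZ6438, VPA, Pexmetinib, LDN193189 and GSK-3 Inhibitor XV. -VE-organoids (2 libraries, passages 1 and 6) received that mixture without VPA, a histone deacetylase inhibitor, and without EPZ6438, which inhibits EZH2, a histone methyltransferase. The -VE-organoids and Hyper-organoids 1 and 2 originated from ENR-organoids, whereas ENR-organoids 3 and Hyper-organoids 3 both came from primary crypts at passage 3. In the other series the ENR-organoids were 1 passage number above the cultures derived from them. The mice were young adults per the methods, while the labels give neither strain nor age for single libraries and do not say whether the libraries came from separate animals, so the p-values below measure the spread between these libraries. Colonic crypts of normal mice and of mice treated with DSS, an agent that injures the colon, were also sequenced, with 1 library each and no replicates.

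EE cells numbered 61 to 107 per library (212 in ENR-organoids, 162 in -VE-organoids and 290 in Hyper-organoids), with 973667 to 2654892 UMIs per library in this class and 88150348 to 168000092 UMIs in the other organoid cells. Among 8 hormone and granule genes that are no members, 7 were highest in the EE class in 8 of 8 libraries, and Sct in 7 of 8. The methods name Chgb, Chga, Cck and Neurog3 as the markers of this class. High levels of these genes in EE cells are therefore no independent check of the annotation. EE cells with Neurog3 had far lower sums of the 8 genes than the others (values below). The summed CPM of these 8 markers in EE cells was 26663 to 42954 in ENR-organoids, 20029 to 25292 in -VE-organoids and 8485 to 24938 in Hyper-organoids, whereas the summed goblet markers ran from 2436 to 3871, from 4502 to 5002 and from 5151 to 12000. The summed Paneth markers ran from 432 to 1868 in ENR-organoids, from 5945 to 7926 in -VE-organoids and from 2367 to 9304 in Hyper-organoids. Both the goblet and the Paneth list were thus higher in every -VE- and Hyper-organoids library than in any ENR-organoids library. Their part in the differences between media in EE cells was not tested. In Hyper-organoids 1 the Paneth sum of EE cells (9304 CPM) exceeded their enteroendocrine sum (8485 CPM), against the name of the class. The summed enterocyte markers in EE cells went the other way, from 506 to 596 CPM in ENR-organoids, from 231 to 398 CPM in -VE-organoids and from 114 to 320 CPM in Hyper-organoids. The 5 enteric neuron markers summed to 81.1 to 112, 56.5 to 80.1 and 132 to 210 CPM. Stromal markers in EE cells stayed at or below 3.77 CPM in every library. The part of the enterocyte and neuron lists was not tested either. Of the cell barcode sequences, 79 (0.314%) occurred in more than 1 library.

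As background, Neurog3 is a basic helix-loop-helix factor that is switched on briefly in secretory progenitors and starts the endocrine program. Insm1, a zinc finger repressor, Neurod1, a helix-loop-helix factor, and the homeodomain proteins Pax4 and Nkx2-2 act during the commitment that follows. Rfx6, Isl1, Pax6 and Fev are known for the later specification of hormone-producing subtypes, Fev in the serotonin-producing enterochromaffin lineage and Pax6 and Isl1 in the lineages that make peptide hormones such as proglucagon. The same proteins serve pancreatic islets and, in part, neurons.

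In the mouse genome (GRCm38, mm10, GENCODE vM21 annotation) the 9 genes lie at 9 separate loci. Neurog3 (ENSMUSG00000044312) spans chromosome 10, 62133090 to 62134763, on the plus strand within the bounds of Fam241b on the minus strand. Pax6 (ENSMUSG00000027168) spans chromosome 2, 105668900 to 105697364, on the plus strand and overlaps its antisense gene Pax6os1. Isl1 (ENSMUSG00000042258) spans chromosome 13, 116298281 to 116309689, on the minus strand, with no overlapping gene. Neurod1 overlaps Cerkl and Gm26755, and Nkx2-2 overlaps a pair of antisense genes, while the other members have no overlapping gene. The 3′ kit keeps the strand, but the setting used for counting is not given in the sources used here. Cerkl lies on the strand of Neurod1, so reads from their overlap cannot be told apart by strand.

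The overlapping genes had few UMIs, apart from Fam241b. Outside EE cells Fam241b was at 25.4 to 30.0 CPM in all 8 libraries, while Neurog3 there ranged from 0.942 to 6.77 CPM. In EE cells Fam241b was at 74.8 to 99.1 CPM in ENR- and -VE-organoids and 107.7 to 126.6 CPM in Hyper-organoids. Pax6os1 in EE cells had 6 to 13 UMIs per library in ENR-organoids and 2 to 5 in Hyper-organoids, and outside them 0 UMIs in every ENR-organoids library and 4, 11 and 25 in Hyper-organoids 1, 2 and 3. Pax6os1 thus differed between media in the same directions as Pax6 itself (values below). Cerkl outside EE cells had 0 UMIs in every ENR- and -VE-organoids library and 5, 11 and 19 in Hyper-organoids 1, 2 and 3. Neurod1 had 40, 60 and 30 UMIs there in the same 3 libraries. The part of the overlapping genes in the counts of Neurog3, Pax6 and Neurod1 was not tested.

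RefSeq promoters (GRCm38.p6, the 250 bases before each annotated start) were found for 7 of the 9 members, 8 sequences in all. The promoters of Neurog3, of Isl1 and of the internal start of Pax6 are shown because these 3 genes are described most fully below, inside and outside the EE class. Pax6 has a further, upstream start in the table (chr2:105668646-105668895), whose promoter holds 0 E-boxes and is not printed, so the presence of the motif in all 3 printed sequences is no feature of the members. Capitals mark the E-box CANNTG, the motif that helix-loop-helix factors such as Neurog3 and Neurod1 bind. It reads the same on both strands and was searched with no other motif.
Neurog3 promoter, chr10:62132840-62133089, plus strand: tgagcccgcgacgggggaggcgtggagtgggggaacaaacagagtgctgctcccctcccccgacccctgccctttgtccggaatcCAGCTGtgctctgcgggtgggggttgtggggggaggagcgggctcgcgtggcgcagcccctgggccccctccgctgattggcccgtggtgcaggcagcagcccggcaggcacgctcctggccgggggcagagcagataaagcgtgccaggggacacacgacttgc
Isl1 promoter, chr13:116309689-116309938, minus strand: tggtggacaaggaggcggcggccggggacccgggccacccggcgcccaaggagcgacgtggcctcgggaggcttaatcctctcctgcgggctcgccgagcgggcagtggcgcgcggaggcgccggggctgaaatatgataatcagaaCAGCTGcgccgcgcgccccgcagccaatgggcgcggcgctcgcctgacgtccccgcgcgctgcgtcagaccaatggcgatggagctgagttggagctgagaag
Pax6 promoter of the internal start, chr2:105682213-105682462, plus strand: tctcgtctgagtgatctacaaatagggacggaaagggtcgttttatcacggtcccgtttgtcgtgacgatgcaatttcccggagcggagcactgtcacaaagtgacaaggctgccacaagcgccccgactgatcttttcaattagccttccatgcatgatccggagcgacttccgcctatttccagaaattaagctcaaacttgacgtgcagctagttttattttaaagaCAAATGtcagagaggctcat

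At least 1 E-box was present in 5 of the 8 member promoters, against 66.2% of the 32851 promoters in the table, a share near that background. CpG dinucleotides were more frequent, as the member promoters held a median of 16.5 CpG, against 6 over all promoters, and 7 of the 8 lay above that median. The Isl1 promoter held 33 CpG, a count that 4.03% of all promoters reach, the Neurog3 promoter 18 (21.7%) and each Pax6 promoter 15 (27.3%). These counts describe the letters in these windows alone.

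In EE cells, 1 of the 9 members differed between Hyper- and ENR-organoids by the full criterion of an adjusted p under 0.05 and at least a 2-fold change: Pax6 was lower. For comparison, 1.44% of the 11050 genes tested in EE cells were called lower and 14.0% had an adjusted p under 0.05 in either direction, with no minimum fold. By the adjusted p alone, Neurog3 was higher and Pax4, Nkx2-2 and Fev were lower, with changes just under 2-fold. Neurod1, Isl1, Insm1 and Rfx6 did not pass. All 9 members were measured and tested in this comparison (edgeR quasi-likelihood test, Benjamini-Hochberg adjustment over all genes tested).

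Pax6 is a paired-box factor of the peptide hormone lineages. Its level in EE cells was 136, 105 and 91.4 CPM in ENR-organoids 1, 2 and 3, 83.6 and 33.7 CPM in -VE-organoids 1 and 2, and 9.04, 16.2 and 23.3 CPM in Hyper-organoids 1, 2 and 3. The groups did not overlap, with ENR-organoids highest and Hyper-organoids lowest. The log2 fold change between Hyper- and ENR-organoids was -2.74 (SE 0.34, adjusted p = 0.000507), and it stayed between -3.08 and -2.42 when each library was left out in turn. Against -VE-organoids it was -1.90 (SE 0.38, adjusted p = 0.0142), where 0.489% of all genes were called lower. That call was lost without -VE-organoids 1, at -1.14 (adjusted p = 0.115).

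The fall of Pax6 was seen both as fewer cells with the transcript and within the cells that lacked Neurog3. After thinning each EE cell to 10000 UMIs, Pax6 was detected in 36.7% ± 7.29 of EE cells in ENR-organoids (SD, n = 3), 23.4% ± 7.87 in -VE-organoids (n = 2) and 7.92% ± 2.38 in Hyper-organoids (n = 3). Unthinned shares were 41.9%, 32.0% and 11.2%. In EE cells without a Neurog3 UMI, Pax6 stood at 234, 199 and 290 CPM in ENR-organoids 1, 2 and 3 and 201 and 61.8 CPM in -VE-organoids 1 and 2. It was at 16.1, 41.2 and 52.1 CPM in Hyper-organoids 1, 2 and 3. Hyper-organoids thus lay below all other libraries, while ENR- and -VE-organoids overlapped.

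Neurog3, the factor that starts the endocrine program, went the other way. Its level in EE cells was 464, 537 and 784 CPM in ENR-organoids, 707 and 657 CPM in -VE-organoids, and 933, 1078 and 1009 CPM in Hyper-organoids, in the order of the replicates. Every Hyper-organoids library stood above every ENR-organoids library, and the -VE-organoids lay within the ENR-organoids range. The log2 fold change between Hyper- and ENR-organoids was 0.81 (SE 0.20, adjusted p = 0.0186), which is under the 2-fold minimum. It became 1.13 without ENR-organoids 3, the highest of its group. Against -VE-organoids it was 0.54 (SE 0.22, adjusted p = 0.206).

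The share of EE cells with Neurog3 overlapped between media, whereas the UMIs per positive cell did not in Hyper-organoids. At 10000 UMIs per cell it was 58.7% ± 6.22 in ENR-organoids (n = 3), 65.1% ± 3.92 in -VE-organoids (n = 2) and 61.4% ± 5.59 in Hyper-organoids (n = 3). In the cells that held Neurog3, the mean was 9.70, 10.5 and 12.8 UMIs per 10000 in ENR-organoids. The -VE-organoids had 12.5 and 13.0 and the Hyper-organoids 15.9, 19.7 and 18.3. Here the Hyper-organoids stood above both other groups without overlap, whereas ENR- and -VE-organoids overlapped.

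Pax4, a paired-box repressor of early endocrine progenitors, was at 102, 98.4 and 125 CPM in the EE cells of ENR-organoids, 74.3 and 57.4 CPM in -VE-organoids, and 39.9, 74.2 and 47.6 CPM in Hyper-organoids. Each Hyper-organoids library was below each ENR-organoids library, with a log2 fold change of -0.94 (SE 0.22, adjusted p = 0.0142). The -VE-organoids fell between ENR-organoids and the lowest Hyper-organoids libraries and overlapped the latter group.

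Nkx2-2, a homeodomain factor needed for most EE subtypes, showed a similar order. It stood at 387, 342 and 336 CPM in ENR-organoids, 265 and 192 CPM in -VE-organoids, and 170, 205 and 150 CPM in Hyper-organoids, so ENR-organoids did not overlap either other group. The log2 fold change between Hyper- and ENR-organoids was -0.94 (SE 0.15, adjusted p = 0.00189).

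Fev, an ETS factor of the enterochromaffin lineage, was at 464, 337 and 342 CPM in ENR-organoids, 365 and 215 CPM in -VE-organoids, and 159, 252 and 156 CPM in Hyper-organoids. Hyper-organoids lay below ENR-organoids in every library, with a log2 fold change of -0.94 (SE 0.22, adjusted p = 0.0153), while -VE-organoids overlapped both. Pax4, Nkx2-2 and Fev passed the 2-fold minimum in some of the analyses that left out 1 library: Pax4 in 3 of 8 (up to -1.21), Nkx2-2 in 1 of 8 (-1.05) and Fev in 2 of 8 (up to -1.17).

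The remaining members had smaller estimated changes between Hyper- and ENR-organoids in EE cells. Isl1, a LIM homeodomain factor, was the most variable, at 305, 245 and 177 CPM in ENR-organoids, 204 and 64.9 CPM in -VE-organoids, and 152, 93.7 and 298 CPM in Hyper-organoids. All 3 groups overlapped, and the log2 fold change between Hyper- and ENR-organoids was -0.34 (SE 0.41, adjusted p = 0.643). Neurod1 was 467 ± 77.5 CPM in ENR-organoids (SD, n = 3) and 307 ± 13.0 CPM in Hyper-organoids (n = 3), with no overlap but an adjusted p of 0.0716. Insm1 (815 ± 49.8 and 641 ± 38.0 CPM, adjusted p = 0.278) also had groups that did not overlap, and Rfx6, a winged-helix factor (102 ± 24.5 and 74.5 ± 13.7 CPM, adjusted p = 0.342), had groups that did.

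Between -VE- and ENR-organoids, 0 of the 9 members were called in EE cells, where 0.190% of all genes were called in either direction. At an unadjusted p under 0.05, 1413 of 11050 genes passed in this comparison. The member estimates ran from -0.83 for Pax6 (SE 0.34, adjusted p = 0.347) to 0.28 for Neurog3 (SE 0.22, adjusted p = 0.619). The 3 comparisons share libraries, so their estimates are not independent of each other.

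**Figure D1:**
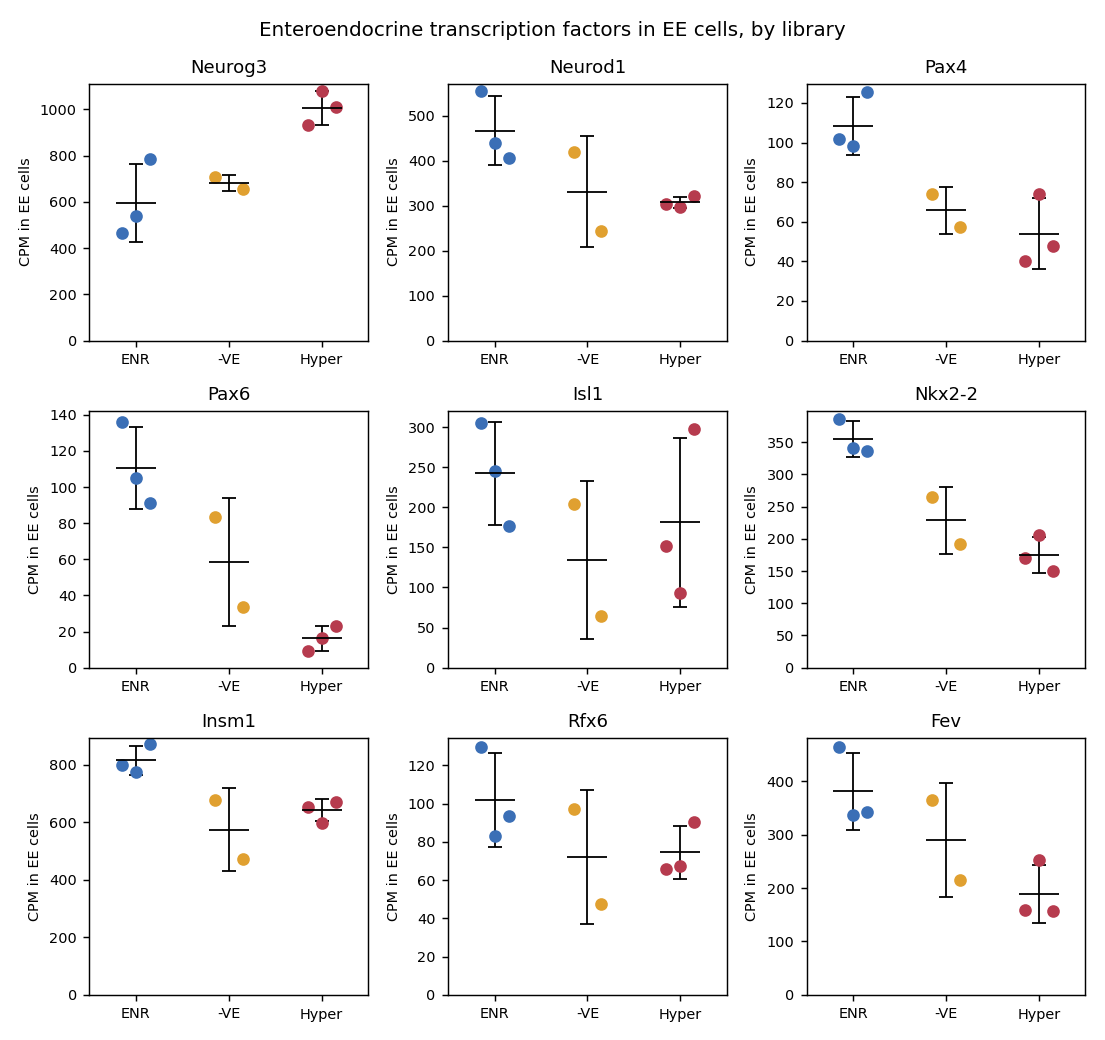
Level of each of the 9 genes in EE cells (CPM, linear axes from 0, a scale of its own per panel), 1 point per library for ENR-, -VE- and Hyper-organoids, with the mean of each group as a bar and its SD as whiskers. Pax6 falls from 91.4 to 136 CPM in ENR-organoids to 9.04 to 23.3 CPM in Hyper-organoids, and Neurog3 is highest in the 3 Hyper-organoids libraries.

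EE cells held several members at once. At 10000 UMIs per cell, the median EE cell had UMIs of 6 members in each ENR-organoids library, 6 and 5 in -VE-organoids 1 and 2, and 5 in each Hyper-organoids library. No EE cell among 607 had none of them, 69.7% had 5 or more, and 4 cells had all 9. Insm1 was found in 89.0% to 98.6% of EE cells over the 8 libraries, Neurod1 in 78.6% to 90.3% and Nkx2-2 in 70.5% to 92.7%, while Isl1 was found in 19.0% to 37.1%. For comparison, over the 1233 enterocytes with enough UMIs (median 36200 UMIs per enterocyte and 19152.5 per EE cell before thinning), 4 cells (0.324%) had an Insm1 UMI, 2 (0.162%) a Neurog3 UMI, and 0 had one of Neurod1, Pax4, Pax6, Rfx6 or Fev, which allows a share of up to 0.243% of cells with a UMI at this depth by counting error alone, and does not limit the share of cells that express the gene.

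The EE cells with and without a Neurog3 UMI differed in the other members. Of 8 members tested across the 8 libraries, with the library as a term, Pax4 and Insm1 were higher and Pax6 and Isl1 lower in cells with Neurog3. For comparison, 2.66% of the 7973 genes tested were called higher and 3.15% lower. Cells were divided after thinning to 10000 UMIs, and their full counts were then summed per library.

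Pax4 and Insm1 accompanied Neurog3 in every library. Pax4 was at 111.5 ± 45.2 CPM in cells with Neurog3 and 29.2 ± 12.2 CPM in cells without it (SD, n = 8 libraries), higher in 8 of 8, with a log2 difference of 2.04 (SE 0.13, adjusted p = 9.96e-09). Insm1 was at 846 ± 137 and 479 ± 186 CPM, higher in 8 of 8, with a log2 difference of 1.02 (SE 0.13, adjusted p = 1.72e-05). The Insm1 difference sat at the 2-fold minimum and dropped just under it when any of 4 libraries was left out, to 0.94 at the least. It was also just under it when cells were divided by 1 or by 2 Neurog3 UMIs without thinning.

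Pax6 and Isl1 were found mostly in the cells without Neurog3. Pax6 was at 13.2 ± 12.1 CPM with Neurog3 and 137 ± 105 CPM without it, lower in 8 of 8 libraries, with a log2 difference of -3.17 (SE 0.28, adjusted p = 5.12e-07). Isl1 was at 114 ± 82.7 and 302 ± 137 CPM, lower in 7 of 8 libraries, with a log2 difference of -1.35 (SE 0.22, adjusted p = 0.000169). The exception was Hyper-organoids 3, where Isl1 was at 306 CPM with Neurog3 and 298 CPM without it.

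The other 4 members differed by less than 2-fold between the 2 kinds of EE cell. Nkx2-2 was higher with Neurog3 in 8 of 8 libraries (log2 difference 0.62, SE 0.09, adjusted p = 8.71e-05), and Neurod1 in 7 of 8 (0.46, SE 0.12, adjusted p = 0.00757). Fev was lower in 8 of 8 (-0.33, SE 0.11, adjusted p = 0.034). Rfx6 did not pass (0.33, SE 0.15, adjusted p = 0.102).

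**Figure D2:**
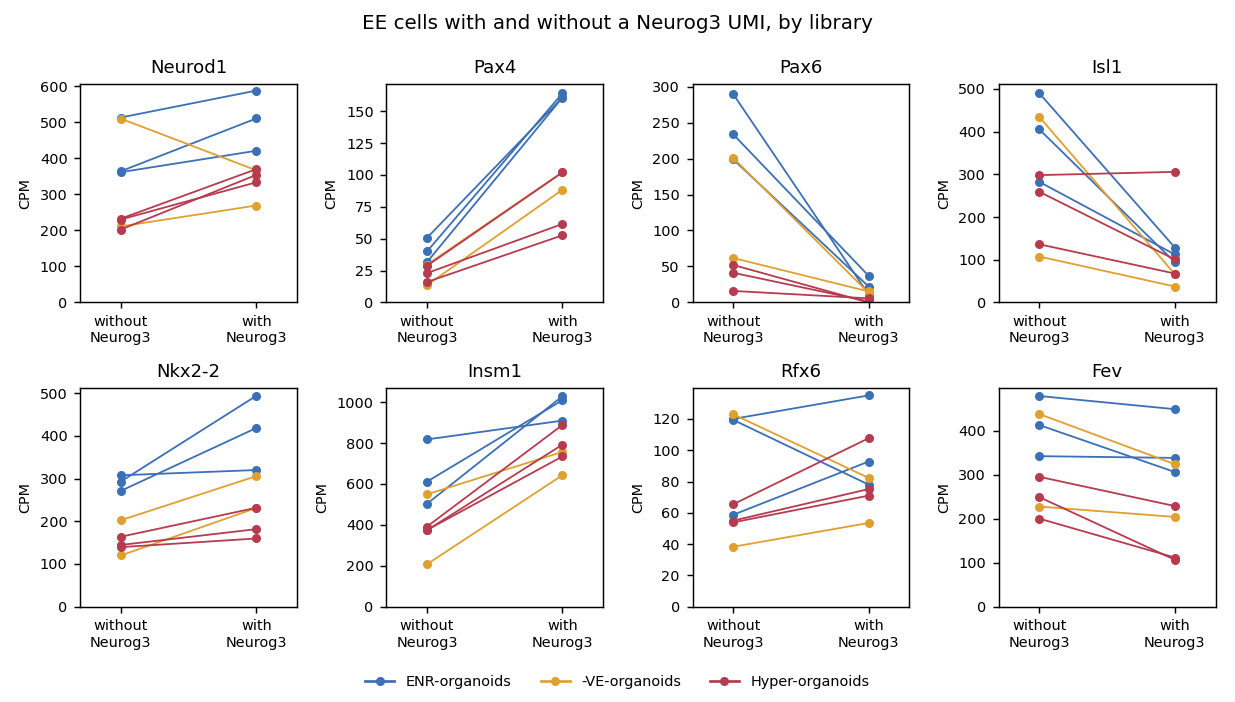
Level of each of the other 8 genes (CPM, linear axes from 0) in EE cells without and with a Neurog3 UMI, with a line joining the values of each of the 8 libraries and colours for the 3 media. Pax4 and Insm1 are higher with Neurog3 in 8 of 8 libraries, Pax6 is lower in 8 of 8 and Isl1 in 7 of 8.

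These 2 kinds of EE cell also differed in hormone and granule genes. The median summed CPM of the 8 enteroendocrine markers per cell was 2136 with Neurog3 and 52289 without it in ENR-organoids. It was 1794 against 24194 in -VE-organoids and 719 against 30148 in Hyper-organoids. The median summed CPM of the 6 goblet markers was 588 with Neurog3 and 1170 without it in ENR-organoids, 548 against 1122 in -VE-organoids and 3601 against 2497 in Hyper-organoids. Over the 166 EE cells of Hyper-organoids with Neurog3 the median goblet sum thus exceeded the median enteroendocrine sum, while 98.8% of these cells held at least 2 other members. Of 20 listed EE products, 16 were tested, 12 were lower with Neurog3 and 0 higher, where 3.15% of all genes were called lower. The median log2 difference of these products was -1.73, against -0.01 over all genes. The largest falls were Gcg, which encodes proglucagon (-13.29, SE 0.25, adjusted p = 6.88e-16), Gip (-12.62, SE 0.41, adjusted p = 2.19e-12) and Cck (-5.79, SE 0.64, adjusted p = 4.67e-06). Gcg had 1 UMI in all cells with Neurog3 and Gip 11, so their fitted values depend on the prior count and are no bounds. Neurog3, Chga, Chgb and Cck were all markers that named the EE class. The difference in products may therefore depend on how cells entered the class, which was not tested.

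Among 18 other regulators of EE cells, 17 were tested, 4 were higher with Neurog3 and 5 lower (median log2 difference 0.41). Neurod2 (2.87, SE 0.22, adjusted p = 9.82e-08), the progenitor factor Sox4 (2.58, SE 0.16, adjusted p = 9.85e-09) and the corepressor Rcor2 (1.51, SE 0.12, adjusted p = 2.03e-07) rose most. Hhex (-3.34, SE 0.35, adjusted p = 3.04e-06), a homeobox factor known for somatostatin-producing cells, Etv1 (-2.87, SE 0.22, adjusted p = 1.2e-07) and Pdx1 (-1.35, SE 0.32, adjusted p = 0.00379) fell most. Of 11 Notch and secretory fate genes, 4 were tested and 1, the Notch ligand Dll1, was higher (2.46, SE 0.21, adjusted p = 4.32e-07), with a list median of 0.26.

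Between media in EE cells, the lists changed in part. Of the 17 other regulators tested, 3 were lower in Hyper- than ENR-organoids and 0 higher (median log2 fold change -0.30, against 0.00 over all genes, of which 159 were lower and 659 higher). Those that were lower included Etv1 (-2.02, SE 0.27, adjusted p = 0.00066) and Neurod2 (-1.51, SE 0.27, adjusted p = 0.00394). Of 7 Notch and secretory fate genes tested, 1 was higher, the goblet and Paneth factor Spdef (1.37, SE 0.38, adjusted p = 0.0334), with a list median of -0.23. Of 20 EE products, Gcg (-7.84, SE 0.73, adjusted p = 9.31e-05), Cck (-2.24, SE 0.51, adjusted p = 0.0135) and Scg2 (-2.05, SE 0.28, adjusted p = 0.000724) were lower, Pcsk1n (1.02, SE 0.26, adjusted p = 0.0214) was higher, and the list median was -0.38.

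Against -VE-organoids, 0 of 17 other regulators and 0 of 7 Notch and secretory fate genes were called in EE cells. Of the EE products, Gcg (-6.59, SE 0.72, adjusted p = 0.000512), Pyy (-5.09, SE 1.06, adjusted p = 0.0171) and Scg2 (-1.43, SE 0.30, adjusted p = 0.0171) were lower in Hyper-organoids and Sst (9.96, SE 2.23, adjusted p = 0.0249) was higher (list median 0.08). Sst had 5 and 0 UMIs in the EE cells of -VE-organoids 1 and 2, so its fitted value depends on the prior count, and it ranged from 0 to 799 UMIs in ENR-organoids. No gene of the 3 lists was called between -VE- and ENR-organoids in EE cells.

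The members were not confined to the EE class. All 9 had their highest CPM in EE cells in 8 of 8 libraries. This is a description, since the classes came from clustering the same counts and Neurog3 was among the markers that named the EE class. For Neurog3 the goblet class came next in every library except Hyper-organoids 2, where 2 Paneth cells held 5 UMIs (124 CPM), and the highest goblet value was 132 CPM in Hyper-organoids 1. The share of all UMIs of a gene that lay in EE cells was lower in Hyper- than ENR-organoids for all 9 members. It was 85.5% in ENR-organoids, 82.0% in -VE-organoids and 76.6% in Hyper-organoids for Neurog3, 97.5%, 95.4% and 80.9% for Isl1, 93.9%, 93.0% and 32.8% for Pax6, 94.0%, 89.9% and 83.8% for Nkx2-2, and 88.8%, 84.9% and 78.9% for Insm1. Over the 3 Hyper-organoids libraries together, 42.4% of the Pax6 UMIs lay in transit amplifying (TA) cells, the dividing progenitors of the crypt, and 21.3% in stem cells. In Hyper-organoids 2 EE cells held slightly more of them than TA cells (35 and 33 UMIs). A shift away from EE cells was not particular to the members. As a share of its level in EE cells, Cpe outside them was 0.0266% to 0.0440% in ENR-organoids and 0.370% to 0.558% in Hyper-organoids. For Chgb these shares were 0.0130% to 0.0187% and 0.0273% to 0.0384%, whereas Gip overlapped (0.00838% to 0.0662% and 0.0121% to 0.0197%).

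**Figure D3:**
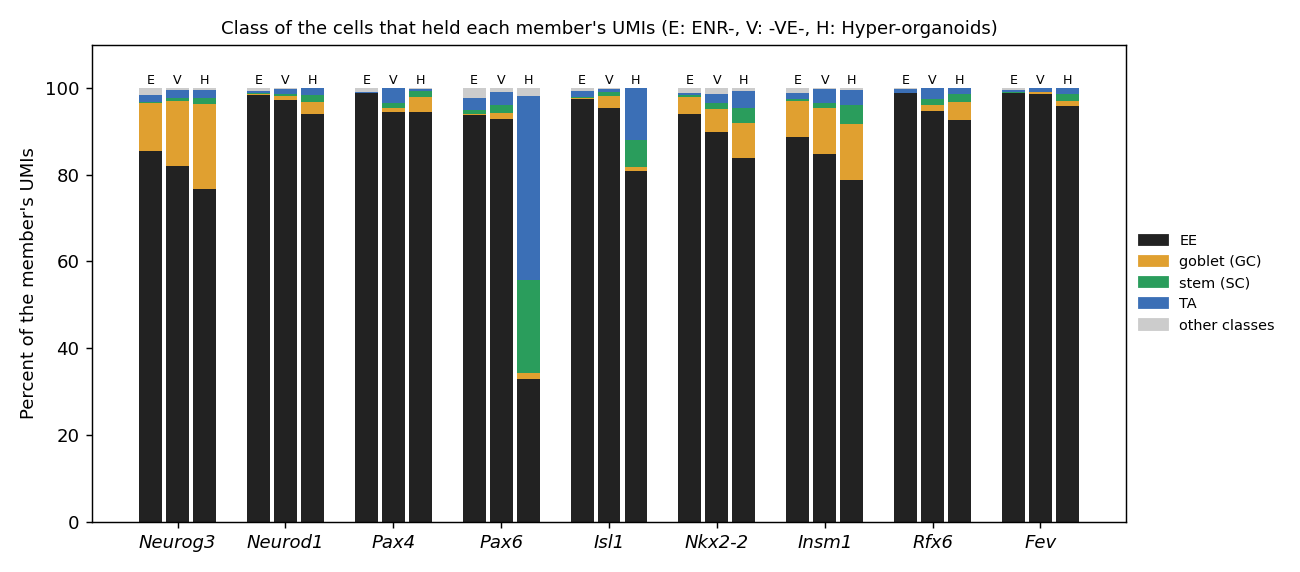
Share of the UMIs of each gene (percent of its UMIs in all kept organoid cells of a group) that lay in each cell class, as stacked bars marked E, V and H for ENR-, -VE- and Hyper-organoids. EE cells hold 93.9% of Pax6 in ENR-organoids, 93.0% in -VE-organoids and 32.8% in Hyper-organoids, and goblet cells hold 11.03%, 14.9% and 19.6% of Neurog3.

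In the 21475 cells outside the EE class, 7 of the 8 members tested were higher in Hyper- than ENR-organoids, where 18.4% of the 15738 genes tested were called higher. The members that passed were Neurog3, Neurod1, Pax6, Isl1, Nkx2-2, Insm1 and Rfx6. Fev did not pass, and Pax4 had too few UMIs to be tested. Pax6, Rfx6 and Fev passed the filter on low counts only with their counts in Hyper-organoids, so the count over the tested members favours genes that are higher there. With no filter all 9 were tested, and 7 were called. The 18.4% applies to the filtered genes, and the share of all genes called with no filter is not given here. The count with no filter therefore has no background and does not offset this limit. Against -VE-organoids, 5 of 8 were higher (15.9% of all genes): Neurog3, Neurod1, Pax6, Isl1 and Insm1. In the alternatives below, likely doublets are the 5% of cells with the most UMIs in each library and class, and no doublet was identified as such. EE cells defined by markers are organoid cells with at least 3 UMIs of each of at least 3 enteroendocrine markers. Cells of the EE class that failed this rule entered neither set. The Neurod1 call against -VE-organoids (1.45) held in 3 of 8 analyses that left out 1 library, with adjusted p up to 0.148, and was lost without likely doublets (1.05, adjusted p = 0.140) and with EE cells defined by markers (1.09, adjusted p = 0.0815). Between -VE- and ENR-organoids, 0 of 8 were called (3.03% of all genes in either direction, and 3899 genes at an unadjusted p under 0.05). The levels concerned were low, and the make-up of these cells differed between media, with 1930 enterocyte progenitors in ENR-organoids and 8 in Hyper-organoids.

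Neurog3 outside EE cells had 127, 149 and 83 UMIs in ENR-organoids. The -VE-organoids had 224 and 331 and the Hyper-organoids 920, 664 and 462. As CPM these were 1.32, 1.23 and 0.942, then 1.87 and 1.97, then 6.77, 4.74 and 5.23, so that none of the 3 groups overlapped. The log2 fold change was 2.14 between Hyper- and ENR-organoids (SE 0.18, adjusted p = 2.91e-05) and 1.41 between Hyper- and -VE-organoids (SE 0.20, adjusted p = 0.000797). Between -VE- and ENR-organoids it was 0.72 (SE 0.19, adjusted p = 0.0545).

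Pax6 and Isl1 also rose outside EE cells, from a few UMIs per library. Pax6 had 7, 8 and 12 UMIs in ENR-organoids. The -VE-organoids had 6 and 10 and the Hyper-organoids 43, 53 and 115, with a log2 fold change of 2.73 (SE 0.64, adjusted p = 0.00676) against ENR-organoids and 3.42 (SE 0.77, adjusted p = 0.00744) against -VE-organoids. Isl1 had 11, 9 and 3 UMIs, then 16 and 7, then 106, 71 and 99, with log2 fold changes of 3.28 (SE 0.54, adjusted p = 0.00115) and 3.104 (SE 0.61, adjusted p = 0.0041). In both genes every Hyper-organoids library exceeded every other library. The Pax6 call against -VE-organoids was lost without -VE-organoids 2 (adjusted p = 0.0567).

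Insm1 had 97, 203 and 77 UMIs outside EE cells in ENR-organoids. The -VE-organoids had 144 and 232 and the Hyper-organoids 616, 357 and 179. Its CPM ranged from 0.874 to 1.67 in ENR-organoids, from 1.20 to 1.38 in -VE-organoids and from 2.03 to 4.53 in Hyper-organoids, without overlap of the last group. The log2 fold changes were 1.23 (SE 0.34, adjusted p = 0.0146) against ENR-organoids and 1.11 (SE 0.39, adjusted p = 0.0444) against -VE-organoids. The first was no longer called without ENR-organoids 1 or 3 or Hyper-organoids 1 (0.84 to 1.11), and the second was lost in 5 of 8 such analyses, after thinning (1.17, adjusted p = 0.0745), without likely doublets (1.26, adjusted p = 0.0659) and with EE cells defined by markers (1.05, adjusted p = 0.0605).

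The other members were sparse outside EE cells. Neurod1 had 3 to 15 UMIs per library in ENR-organoids and 30 to 60 in Hyper-organoids (log2 fold change 1.83, SE 0.44, adjusted p = 0.00719), a call that was lost without likely doublets (0.85, adjusted p = 0.164). Rfx6 had 1 or 2 UMIs in ENR-organoids and 9 to 17 in Hyper-organoids (2.80, SE 0.46, adjusted p = 0.00115), so its fitted value rests on very few UMIs. Nkx2-2 had 18 to 36 and 39 to 108 UMIs (1.04, SE 0.28, adjusted p = 0.0117), and its call was lost without ENR-organoids 3 (0.90) or Hyper-organoids 2 (0.84), without likely doublets (0.72, adjusted p = 0.0603) and, under the 2-fold minimum, with EE cells defined by markers (0.90, adjusted p = 0.0192). Fev had 3 to 9 and 6 to 36 UMIs (1.20, SE 0.67, adjusted p = 0.159), and Pax4 0 to 4 and 4 to 9.

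Which cells held these UMIs differed from gene to gene. In the goblet class, Neurog3 and Neurod1 were called higher in Hyper- than ENR-organoids (as were 10.7% of all genes), and these and Nkx2-2 and Insm1 were called higher than in -VE-organoids (8.72%). In TA cells the calls against ENR-organoids were Neurog3, Neurod1, Pax6, Isl1, Nkx2-2 and Insm1 (17.2%), and in stem cells Isl1 and Insm1 (15.2%). Sparse members passed the filter in these classes through their counts in Hyper-organoids, so the number called of those tested is no measure of the members as a group. The analyses of the goblet and TA classes alone were added after the data were seen.

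Goblet cells, which secrete mucus, were the main holders of Neurog3 outside the EE class. Their Neurog3 level was 24.2, 22.1 and 22.1 CPM in ENR-organoids, 27.2 and 21.95 CPM in -VE-organoids, and 132, 76.9 and 90.0 CPM in Hyper-organoids, with the last group apart and the others overlapping. The log2 fold change was 2.02 against ENR-organoids (SE 0.19, adjusted p = 1.88e-05) and 1.98 against -VE-organoids (SE 0.20, adjusted p = 6.37e-05). Few cells carried it: 26 of 379 goblet cells in ENR-organoids, with 10.5 UMIs each on average, and 65 of 494 in Hyper-organoids, with 26.4 UMIs each and 38 of them at 10 or more.

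The goblet cells with Neurog3 differed from the other goblet cells in their markers. Cells were divided by Neurog3 after thinning to 10000 UMIs, and the marker sums were taken from their full counts. The median summed CPM of 6 goblet markers was 7822 in those with Neurog3 and 37749 in those without in ENR-organoids. It was 9067 against 34684 in -VE-organoids and 18978 against 27289 in Hyper-organoids. The median summed CPM of the enteroendocrine markers in goblet cells with Neurog3 was 0, 48.7 and 129 in the 3 media, against 43.3, 44.4 and 121 in those without. At least 2 other members were found in 22.7%, 17.2% and 28.0% of the goblet cells with Neurog3.

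In goblet cells Insm1 was at 17.3, 33.3 and 14.3 CPM in ENR-organoids and 60.96, 32.2 and 26.2 CPM in Hyper-organoids, with overlap (log2 fold change 0.74, SE 0.32, adjusted p = 0.0975). Neurod1 in goblet cells had 1, 1 and 0 UMIs in ENR-organoids and 14, 30 and 14 in Hyper-organoids, and no fold is given against so few UMIs. The Paneth class, with 229 cells in all and as few as 2 in a library, had 19 Neurog3 and 20 Insm1 UMIs in Hyper-organoids 1, and 0 Pax6 UMIs in all 8 libraries.

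Pax6 and Isl1 outside EE cells lay mostly in TA and stem cells of Hyper-organoids, at a median of 1 UMI per positive cell. Neurog3 had UMIs in 88 of 3900 TA cells of Hyper-organoids (median 1 UMI), at 0.447 to 0.994 CPM per library against 933 to 1078 CPM in EE cells, and whether single UMIs at this level came from free RNA was not tested. In TA cells Pax6 was at 0.0646, 0.0536 and 0.181 CPM in ENR-organoids, 0.0288 and 0.0491 CPM in -VE-organoids, and 0.368, 0.421 and 1.59 CPM in Hyper-organoids (log2 fold change against ENR-organoids 2.94, SE 0.77, adjusted p = 0.0105). Isl1 in TA cells was at 0.108, 0.125 and 0.0301 CPM, then 0.0144 and 0.0294 CPM, then 0.761, 0.612 and 1.43 CPM (3.17, SE 0.51, adjusted p = 0.000888). Hyper-organoids stood above all other libraries in both genes.

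These UMIs came from many cells. In the TA cells of Hyper-organoids, 86 of 3900 cells held Pax6 with a mean of 1.55 UMIs, and 121 held Isl1 with a mean of 1.42 UMIs, against 12 and 13 of 2764 TA cells in ENR-organoids, each with 1 UMI. In EE cells of Hyper-organoids the cells with Isl1 held 13.1 UMIs on average. In stem cells Isl1 had 1 UMI in 868 cells of ENR-organoids and 92 UMIs in 3481 cells of Hyper-organoids, and no fold is given against so few UMIs. Insm1 in stem cells was at 0.0811 to 0.393 CPM and, in Hyper-organoids, at 0.744 to 2.43 CPM (2.63, SE 0.69, adjusted p = 0.0112), with 8 UMIs in ENR-organoids behind that value. Pax6 in stem cells, at 0 to 0.162 and 0.281 to 0.992 CPM, did not pass (1.98, SE 0.86, adjusted p = 0.0839).

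**Figure D4:**
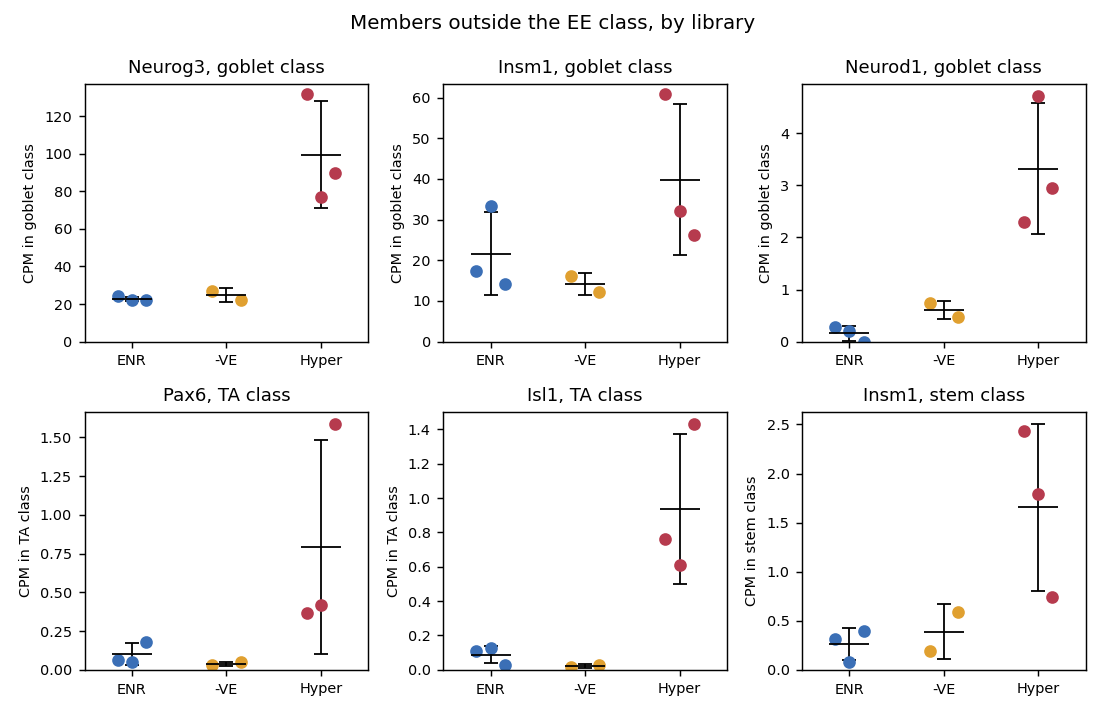
Level (CPM, linear axes from 0, a scale of its own per panel) of Neurog3, Insm1 and Neurod1 in goblet cells, of Pax6 and Isl1 in TA cells and of Insm1 in stem cells, 1 point per library, with the mean of each group as a bar and its SD as whiskers. Neurog3 in goblet cells stands at 22.1 to 24.2 CPM in ENR-organoids and 76.9 to 132 CPM in Hyper-organoids, and Insm1 in goblet cells is the panel in which Hyper- and ENR-organoids overlap.

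The summed enteroendocrine and neuronal markers outside EE cells also differed between media, as did leukocyte and stromal markers at very low levels. The 8 enteroendocrine markers summed to 8.48 to 12.0 CPM in ENR-organoids, 10.5 to 10.6 CPM in -VE-organoids and 13.1 to 30.5 CPM in Hyper-organoids. Single markers of this list did not go together. Sct was at 4.15 to 5.62, 5.26 to 6.42 and 6.17 to 22.6 CPM in these media. Chgb (1.76 to 3.83 and 2.08 to 4.86 CPM) and Tph1 overlapped between ENR- and Hyper-organoids, and Cck was lower in Hyper-organoids. Chga, Tac1, Scg3 and Pcsk1n were higher in each Hyper-organoids library than in any ENR-organoids library. The 5 enteric neuron markers summed to 0.379 to 0.469, 0.613 to 0.716 and 5.54 to 8.05 CPM. The 4 leukocyte markers summed to 0.0417 to 0.0741, 0.0666 to 0.0714 and 0.400 to 1.24 CPM, and the 4 stromal markers to 0.0227 to 0.0625, 0.0476 to 0.0666 and 0.385 to 0.550 CPM, and the part of these lists in the rise of the members was not tested. As a share of its level in EE cells, Chga outside them was 0.0167% to 0.0232% in ENR-organoids and 0.0322% to 0.0840% in Hyper-organoids, whereas Pax6 rose from between 0.0537% and 0.149% to between 2.33% and 5.597%, with a lower level in EE cells as the base of that share. Other products had higher shares than Chga in Hyper-organoids, with Sct at 1.05% to 2.92% and Pcsk1 at 0.506% to 0.619%. The median of this share over the 9 members was 0.0193% to 0.0410% per library in ENR-organoids and 0.294% to 0.375% in Hyper-organoids, and that over the EE products was 0.0229% to 0.0253% and 0.0630% to 0.118%.

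Enteroendocrine marker UMIs, those of Sct included, were also counted cell by cell outside the EE class of Hyper-organoids. At least 3 marker UMIs were present in 10 of 149 cells with Pax6 (6.71%, against 5.37% of those without) and in 9 of 205 cells with Isl1 (4.39%, against 5.42%). For Neurog3 the shares were 26.6% of 199 cells and 4.85%. With all cells of 3 or more marker UMIs left out, Pax6 (2.93), Isl1 (3.28), Neurog3 (1.501) and Neurod1 (1.54) were still called higher than in ENR-organoids, while Nkx2-2 (0.77) and Insm1 (0.99) were not and Rfx6 had too few UMIs to be tested. Against -VE-organoids the Neurog3 (1.10, adjusted p = 0.0517) and Insm1 (1.13, adjusted p = 0.0763) calls were lost in this setting.

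The change between media thus differed between EE cells and the other cells, and this difference was tested in 1 fit over both. Between Hyper- and ENR-organoids, the change in EE cells was called lower than that outside them for the 8 members also tested outside EE cells on their own. Over the 16191 genes tested this share was 6.34%. Pax6, Rfx6 and Fev had passed the filter outside EE cells only with their counts in Hyper-organoids. This choice of 8 therefore favours members that rise outside EE cells. Pax4 had too few UMIs outside EE cells to be tested there and entered this fit through its EE counts, and Rfx6 had 1 or 2 UMIs there in ENR-organoids, so the values of both are weakly supported. After thinning 6 members were called, without Pax4, Rfx6 and Fev (adjusted p = 0.520, 0.215 and 0.0680). Pax4 was also lost without likely doublets, and Pax4 and Neurog3 with EE cells defined by markers. Against -VE-organoids this held for 5 of 9 (3.21%): Neurod1, Pax6, Isl1, Nkx2-2 and Fev. Of these, Fev was lost without -VE-organoids 1 or Hyper-organoids 2 (adjusted p up to 0.197), after thinning (adjusted p = 0.162) and with EE cells defined by markers (adjusted p = 0.103). Neurod1 and Nkx2-2 were lost without -VE-organoids 1, Neurod1 also without likely doublets and Nkx2-2 with EE cells defined by markers. Between -VE- and ENR-organoids it held for 0 of 9 (0.871% in either direction, and 1746 genes at an unadjusted p under 0.05).

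The difference was largest for Pax6, at -5.31 on the log2 scale (SE 0.42, adjusted p = 1.49e-09) against ENR-organoids and -5.01 (SE 0.49, adjusted p = 1.3e-07) against -VE-organoids, with a fall in EE cells and a rise outside them. Isl1 (-3.69, SE 0.25, adjusted p = 1.29e-10) rose outside EE cells with no change passing the test within them. Neurog3 (-1.25, SE 0.22, adjusted p = 0.000235) had higher levels in Hyper-organoids in both compartments, and the rise outside was the larger in proportion. The remaining 6 lay between -1.46 for Insm1 and -3.13 for Rfx6. Neurog3 dropped under the 2-fold minimum without ENR-organoids 3 (-0.90), and Pax4 (-2.49, SE 0.78, adjusted p = 0.0348) lost its call without ENR-organoids 2 or 3 or Hyper-organoids 1, with adjusted p up to 0.141.

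**Figure D5:**
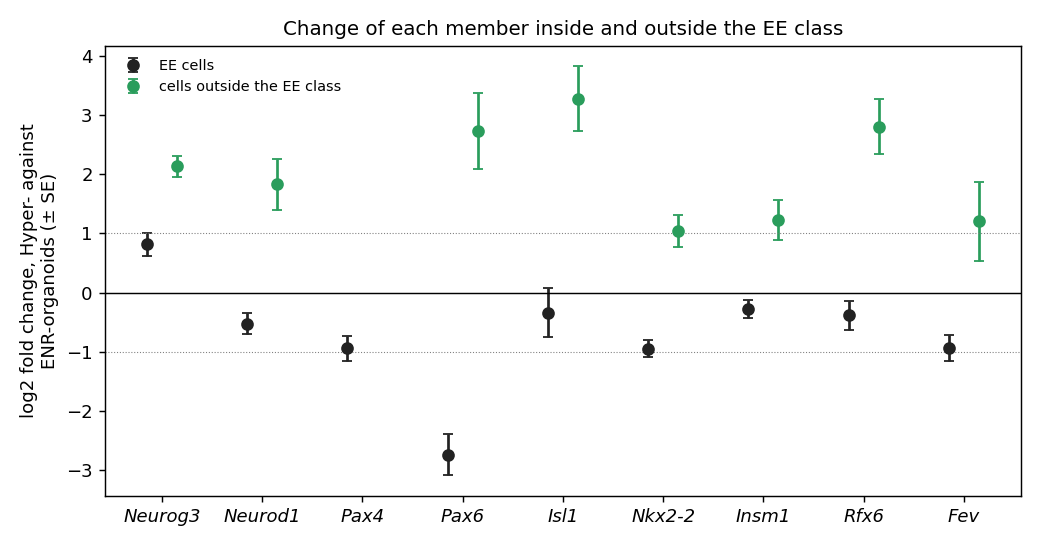
Log2 fold change between Hyper- and ENR-organoids for each gene in EE cells (black) and in cells outside the EE class (green), with its standard error as whiskers and dotted lines at a 2-fold change. Pax6 lies at -2.74 in EE cells and at 2.73 outside them, Neurog3 is higher in both, and Pax4 was not tested outside EE cells.

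Other EE genes changed outside the EE class as well. Of 17 other regulators tested, 7 were higher and 1 was lower in Hyper- than ENR-organoids (median 0.58, against -0.01 over all genes, of which 2894, or 18.4%, were higher and 758 lower). Prox1 (5.72, SE 0.42, adjusted p = 1.59e-05), Lmx1a (5.22, SE 0.70, adjusted p = 0.000375) and Myt1 (3.91, SE 0.58, adjusted p = 0.000663) rose most, Myt1 from very few UMIs. Of 15 EE products, 7 were higher and 2 lower (median 0.73). Pcsk1n (5.05, SE 0.44, adjusted p = 3.85e-05), Cpe (2.91, SE 0.30, adjusted p = 8.81e-05) and Tac1 (2.27, SE 0.35, adjusted p = 0.00077) rose most, and Gcg and Cck (-1.43, SE 0.47, adjusted p = 0.0287) fell. Gcg had 66, 58 and 87 UMIs outside EE cells in ENR-organoids 1, 2 and 3, 24 and 14 in -VE-organoids 1 and 2, and 0, 2 and 0 in Hyper-organoids 1, 2 and 3, so no fold is given for Hyper-organoids. Of 11 Notch and secretory fate genes, 1 was higher, Hes5 (2.19, SE 0.47, adjusted p = 0.00429), with a list median of -0.05.

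Outside EE cells and against -VE-organoids, 5 of the 17 other regulators were higher and 1 lower (median 0.35), where 15.9% of all genes were called higher. Lmx1a (5.62, SE 0.83, adjusted p = 0.00109), Prox1 (5.03, SE 0.46, adjusted p = 0.000121) and Etv1 (3.81, SE 0.31, adjusted p = 7.31e-05) rose most. Of the EE products 7 were higher and 1 lower (median 1.23), led by Pcsk1n (3.42), Cpe (2.62) and Pcsk1 (2.55), with Gcg lower. Hes5 was again the 1 Notch and secretory fate gene that was higher (2.01, SE 0.53, adjusted p = 0.0149). Between -VE- and ENR-organoids, Hhex was higher (1.40, SE 0.22, adjusted p = 0.0106) and Gcg lower (-2.36, SE 0.58, adjusted p = 0.0434).

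In Hyper- against ENR-organoids, the difference between EE cells and the others was called lower for 7 of 17 other regulators and 10 of 20 EE products. Over all genes tested this share was 6.34%. The regulators were led by Lmx1a (-5.89), Etv1 (-5.72) and Prox1 (-5.61), and the products by Pcsk1n (-3.94), Cpe (-3.49) and Tac1 (-2.61). The list medians were -1.43 and -1.27 (0.01 over all genes). Of 11 Notch and secretory fate genes Sox9 was lower (-1.07) and Spdef higher (1.52). Against -VE-organoids the counts called in the 3 lists were 5, 8 and 0, all lower, where 3.21% of all genes were called lower.

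The genes most like each member were sought over the 50 sums per class and library with at least 20 cells, by Pearson correlation of log2(CPM + 1) over 16331 genes. These sums share libraries and are dominated by the contrast of EE cells with the rest, so the values are a description. Neurog3 was nearest to Insm1 (0.981), Slc39a2 (0.961) and Alb (0.961), and Insm1 to Neurog3, Slc39a2 (0.976) and Alb (0.972). Neurod1 was nearest to Rfx6 (0.996), Myt1 (0.994) and Dner (0.993), Rfx6 to Neurod1, Pax4 (0.994) and Dner (0.994), and Pax4 to Rfx6, Cacna1h (0.992) and Kcnc1 (0.992).

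Pax6 was nearest to Gm35409 (0.985), Pak3 (0.983) and Gpx3 (0.981), Isl1 to Scgn (0.992), Ppp1r14c (0.990) and Gng4 (0.990), Nkx2-2 to Pcsk1 (0.984), Shc2 (0.981) and Cryba2 (0.980), and Fev to Kcnc1 (0.998), Rab3c (0.996) and Scg3 (0.996). The median correlation of a member with the other 8 ran from 0.869 for Neurog3 to 0.974 for Neurod1.

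In the colonic crypts the members other than Neurog3 and Isl1 were held mostly by the cluster that the authors numbered 16, with 16 cells in the normal and 43 in the DSS library, where Chga stood at 15093 CPM in the DSS library. With 1 library per condition no test was made, and the intervals are exact Poisson 95% intervals that cover counting error only. Neurod1 in this cluster was at 450 CPM (351 to 568) in normal and 386 CPM (317 to 465) in DSS crypts. Fev was at 212 CPM (146 to 298) and 379 CPM (311 to 457), the only member whose 2 intervals did not overlap. Insm1 was at 488 and 508 CPM, Nkx2-2 at 193 and 165 CPM, Pax6 at 51.4 and 70.1 CPM, and Pax4 rested on 4 and 22 UMIs. Isl1 had 3 UMIs in the normal and 16 in the DSS library, 1 and 5 of them in this cluster, and 7 in cluster 18 of the DSS library.

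Neurog3 was rare in colon. It had 0 UMIs in the 1132 normal cells, which allows a level of up to 0.151 CPM by the limit of 3 counts (0.185 CPM by the Poisson interval). In the 16 normal cells of cluster 16 alone, 0 UMIs allow up to 19.3 CPM (23.7 CPM by the Poisson interval). The DSS library had 34 Neurog3 UMIs in 3 of its 1933 cells. Of these, 30 lay in 1 cell of the stem cluster, which also had UMIs of 2 other members and 7 UMIs of enteroendocrine markers. The other 2 cells held 3 UMIs (in cluster 16) and 1 UMI.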

How the data were processed

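Single cells were captured with a 10x Genomics 3′ v3 kit, and the authors ran Cell Ranger 3.0.0 on mm10 and Seurat 3.1.4 per the labels and methods. The files they deposited hold raw UMI counts per gene and cell and a cell annotation (class names, clusters), which was used as given. Kept cells had at least 501 genes and at most 20% mitochondrial UMIs, although the methods state 1500 genes and 25%. How the authors treated doublets is not given in the sources used here. Library sizes are given at the start of the report. All columns of per-sample values were matched to a sample.

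Counts were summed per gene, library and cell set and tested with edgeR 4.0.16 (R 4.3.3; quasi-likelihood test, TMM, filterByExpr) in 4 fits: EE cells, all other organoid cells, the difference of these changes with the library as a term, and EE cells with against without Neurog3 with the library as a term. P-values were adjusted over all genes tested (Benjamini-Hochberg). A call needed an adjusted p under 0.05 and at least a 2-fold change. Fits were also run on simulated counts with 200 changed genes, whose outcome is not given here and is no support for single members. Alternatives were DESeq2 1.42.0, RLE factors, no filter, other cell sets, thinning, a replicate block, and each library left out. With EE cells defined by markers, the EE set held 36 to 72 cells per library in place of 61 to 107. The EE-class cells left out of it were not added to the other cells. The members and lists were chosen with earlier results of these data known. All 9 members were named, with the 3 called genes of each list that rose and fell most and the 3 genes most like each member, except that 1 gene of the regulator list is not reported here.

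ENR- and Hyper-organoids of the same culture series (replicate number) correlated in their deviations from the group means at -0.03, 0.07 and 0.15 in EE cells. This does not pair them. Outside EE cells the values were 0.20, 0.17 and 0.45, against -0.30 to 0.14 between different series. Pairing there was thus weak apart from replicate 3. The main fits of EE cells and of the other cells held no series term, so their SE and p-values take no account of it. The replicate block was an alternative. The series comes from the sample titles.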

Additional observations from a re-analysis of the deposited data

Results flagged for a closer look

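The change between Hyper- and ENR-organoids differed between EE cells and the other organoid cells in a test of that difference. Pax4 could not be tested outside EE cells on its own and entered through its EE counts, and Rfx6 rests on few UMIs there. After thinning Pax4, Rfx6 and Fev no longer passed. The Neurog3 difference was lost without ENR-organoids 3 (-0.90) and with EE cells defined by markers (-0.93, adjusted p = 0.0575), and Pax4 without ENR-organoids 2 or 3 or Hyper-organoids 1, without likely doublets and with EE cells defined by markers. On the log2 scale the change in EE cells minus the change outside them was -1.25 for Neurog3, -2.35 for Neurod1, -2.49 for Pax4, -5.31 for Pax6, -3.69 for Isl1, -1.97 for Nkx2-2, -1.46 for Insm1, -3.13 for Rfx6 and -2.13 for Fev. Against -VE-organoids the difference passed the same test for Neurod1 (-1.50), Pax6 (-5.01), Isl1 (-2.69), Nkx2-2 (-1.10) and Fev (-1.95). Fev was lost without -VE-organoids 1 or Hyper-organoids 2, and Neurod1 and Nkx2-2 without -VE-organoids 1. These comparisons share the Hyper-organoids libraries.

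The barcodes that the authors did not keep enter no comparison of the report. Of the 9 members, those whose counting interval there lay above that of every ENR-organoids library are given. Neurog3 stood at 5.27 CPM in -VE-organoids 1 and at 5.06, 3.84 and 3.98 CPM in Hyper-organoids 1, 2 and 3, against 0.422, 0.631 and 0.324 CPM in ENR-organoids 1, 2 and 3. Insm1 was at 4.97 CPM in -VE-organoids 1, and Fev at 2.10 CPM in Hyper-organoids 2. The -VE-organoids did not go together, as -VE-organoids 2 had Neurog3 at 0.349 CPM and Insm1 at 0.873 CPM. Neurod1 (2.87 CPM), Pax6 (2.07 CPM) and Isl1 (2.31 CPM) stood out in Hyper-organoids 3. No cell class is known for these barcodes.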

How the results depend on the processing

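Of the counts of members called, 154 values under an alternative stayed within 1.5 times the main count and 28 did not, and DESeq2 and RLE factors changed none of them. In EE cells, Hyper- against ENR-organoids, the count of 1 became 5 with no minimum fold, 3 after thinning, 3 without likely doublets, 2 with EE cells defined by markers, and 1 to 4 with each library left out. Against -VE-organoids it was 0 to 1 with each library left out. Outside EE cells, against ENR-organoids, the count of 7 among 8 tested became 4 after thinning, where 4 had enough UMIs to be tested, 4 of 7 tested without likely doublets, 4 of 7 without cells of 3 or more marker UMIs, 2 of 6 in stem cells, 2 of 4 in goblet cells (added after seeing the data) and 1 over all kept cells, EE cells included. Against -VE-organoids the count of 5 became 2 of 4 tested after thinning, 3 with EE cells defined by markers, 3 in stem cells, 2 in TA cells (added after seeing the data) and 1 over all kept cells, and 2 to 5 with each library left out. For the difference between EE cells and the others, the count of 5 against -VE-organoids became 3 with EE cells defined by markers and 2 to 6 with each library left out, and the count of 0 between -VE- and ENR-organoids became 1 with no filter and 0 to 2 with each library left out. The count of 4 between EE cells with and without Neurog3 became 7 with no minimum fold. The share of all genes that pass with no minimum fold in this fit is not given here, so that count has no background.

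Of the fold changes of single members in the comparisons with Hyper-organoids, with Neurog3 and, between -VE- and ENR-organoids, of Neurog3 and Pax6 in EE cells and Neurog3 and Rfx6 outside them, 18 turned sign, and none of the 18 turned values passed the criterion. The other values between -VE- and ENR-organoids were not called as reported and are not counted here, and some of them turned sign too, such as Fev in EE cells (-0.29, and 0.039 at the highest with a library left out). Over all kept cells, Hyper- against ENR-organoids, Neurod1 was -0.044, Pax6 -0.72, Nkx2-2 -0.39 and Fev -0.52, Fev was -0.28 against -VE-organoids, and Rfx6 was -0.28 between -VE- and ENR-organoids. In EE cells against -VE-organoids, Insm1 was -0.11 with EE cells defined by markers, and Rfx6 was -0.62 so defined, -0.15 after thinning, -0.054 without likely doublets and -0.011 with the replicate block. With each library left out, the values against -VE-organoids ranged from -0.47 to 0.29 for Neurod1, from -0.20 to 1.44 for Isl1, from -0.099 to 0.40 for Insm1 and from -0.41 to 0.60 for Rfx6 in EE cells, and from -2.86 to 0.45 for Pax4 in the difference between EE cells and the others. The ends of these ranges come from leaving out -VE-organoids 1 or 2, and Isl1 (-0.14) and Rfx6 (-0.14) also turned sign without Hyper-organoids 3. The cause was not tested. The replicate block (culture series) changed no other sign and no count of members, and without the library term Insm1 fell to 0.94 between EE cells with and without Neurog3, under the 2-fold minimum. Shares of EE cells with a member moved by more than 1 SD in 35 cases and by less in 37 without thinning, and CPM in EE cells in 16 and 56 when averaged over cells. The -VE-organoids had only 2 libraries, and outside EE cells Pax4, Rfx6 and Fev rest on 0 to 36 UMIs per library, where smaller differences were not detectable at this depth.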
